A study of Mus musculus with 6 samples.

Results

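The immunity-related GTPases are a family of interferon-inducible proteins, and 7 of their genes, Irgm1, Irgm2, Igtp, Ifi47, Iigp1, Tgtp1 and Gm12250, were read out of a table of 559 genes by their symbols. All 7 were found. The table comes from natural killer (NK) cells purified from the spleens of C57BL/6 mice, in which the effect of oleic acid (OA), a monounsaturated fatty acid, on gene expression was asked. The OA group was kept with 0.2 mM OA for 36 h, the control group was kept without OA for the same time, and each group has 3 libraries. Per the labels, the treatment was carried out once. No label says whether the libraries of a group came from separate mice or cultures, so p-values measure only the spread between these libraries, which may be technical. Values are TPM, a relative transcript abundance that is corrected for transcript length, so that levels of different genes can be set side by side.

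In mice, interferon gamma, the cytokine that NK cells secrete, acts through its receptor and induces the transcription factor IRF1, which helps to switch on the GTPase genes. The proteins of the effector class, named GKS after amino acids of their nucleotide-binding motif, assemble on the vacuoles in which intracellular parasites and bacteria live and help to break them. Those of the regulatory class, GMS, sit on the membranes of the cell itself and hold the effectors inactive there. Mouse Irgm1, Irgm2 and Igtp (also called Irgm3) belong to the regulatory class, and Ifi47 (Irgd), Iigp1 (Irga6), Tgtp1 (Irgb6) and Gm12250 (Irgb10) belong to the effector class. Macrophages and many other cell types make these proteins in response to interferon, so the transcripts are no marker of NK cells.

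In RefSeq on GRCm38, the build called mm10 in the submitters' processing notes, all members but Iigp1 lie on chromosome 11 in 2 clusters. Irgm1 (chr11:48865245-48871420), Tgtp1 (chr11:48985329-48992246) and Ifi47 (chr11:49076587-49096987) span 231743 bases together with 6 other protein-coding genes, of which 0 were listed in the table. Gm12250 (chr11:58183843-58190198), Igtp (chr11:58199556-58207592) and Irgm2 (chr11:58214977-58222783) stand next to each other within 38941 bases, with no other gene between them.

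The promoters are shown because letters of interferon-type motifs can be read in most of those found. What part such motifs had in the lower levels was not tested. RefSeq promoter windows on GRCm38, from 250 bases before to 50 bases after the annotated start, were found for 6 members, and none was matched for Iigp1. They were searched on both strands for GAAA, any 2 bases and GAAA, letters of the interferon-stimulated response element (ISRE) that IRF factors bind, and for TTCNNNGAA, letters of the gamma-activated site (GAS), an element of genes that respond to interferon gamma. The lines below run 5′ to 3′ on the gene's strand, with 30 bases on either side of the matches and the matching letters in capitals.
Irgm1, chr11:48871405-48871480, minus strand: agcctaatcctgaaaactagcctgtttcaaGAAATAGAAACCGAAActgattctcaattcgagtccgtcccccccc
Irgm2, chr11:58214872-58214952, plus strand: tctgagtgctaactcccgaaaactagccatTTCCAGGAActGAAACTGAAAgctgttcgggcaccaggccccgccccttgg
Igtp, chr11:58199481-58199561, plus strand: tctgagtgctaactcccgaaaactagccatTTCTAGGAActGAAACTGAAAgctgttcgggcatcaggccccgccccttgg
Tgtp1, chr11:48992284-48992364, minus strand: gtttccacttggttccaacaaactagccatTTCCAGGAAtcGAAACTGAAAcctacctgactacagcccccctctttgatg
Gm12250, chr11:58183722-58183836, plus strand: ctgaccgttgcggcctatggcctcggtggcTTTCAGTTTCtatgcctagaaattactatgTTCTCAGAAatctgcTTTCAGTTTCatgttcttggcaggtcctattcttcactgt

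ISRE letters stood in 5 of the 6 windows, against 3.44% of all 32851 promoter windows and 7.72% of the 544 windows of listed genes. GAS letters stood in 4 of the 6, against 8.30% of all windows and 10.5% of those of listed genes. Of the listed genes for guanylate-binding proteins, interferon-induced GTPases taken up below, 3 had a window. ISRE letters stood in 3 of these 3 and GAS letters in 1. The 2 ISRE matches of Irgm1 overlap, and the 2 of Gm12250 lie on the opposite strand, 91 and 46 bases before the start. In Irgm2, Igtp and Tgtp1 the GAS letters end 2 bases before the ISRE letters. This arrangement, the GAS letters, any 2 bases and the ISRE letters, was singled out after the sequences had been seen; it was found in 5 of the 32851 windows, those of Igtp, Irgm2, Tgtp1, Tgtp2 and Gm12185. The last 2 are on a fixed list of further genes of the family and its near relatives, and they were not listed in the table. The promoter windows of Irgm2 and Igtp were 72.8% identical over their alignment, against 39.3% to 50.1% for the other pairs, so these windows are not independent examples. The window of Ifi47 held neither set of letters. For 4 of the 6 windows the bases just after the annotated start were found in a coding transcript of the gene in GENCODE M21. That annotation has no coding transcript of Gm12250 to search. Matches and their distances rest on the RefSeq start. A match in letters is a description and does not show binding.

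**Figure D1:**
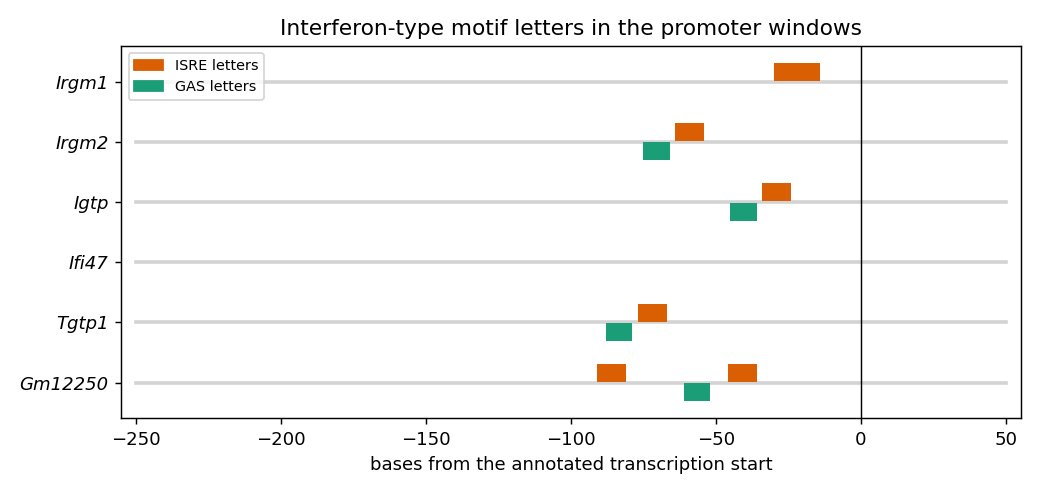
Positions of ISRE letters (orange) and GAS letters (green) in the promoter windows of 6 members, in bases from the annotated transcription start, which is at 0. The 3 genes Irgm2, Igtp and Tgtp1 share the order of GAS and then ISRE, and the window of Ifi47 is empty.

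The table lists only genes for which the authors' Q value of OA against control was under 0.05 (the largest was 0.0499), so each member is in it because the authors' test had called it on these same libraries. Tests on the members therefore describe the listed genes and are no independent evidence that the genes differ. The listed genes made up 12.2% to 12.6% of the TPM scale per library. The depth of the libraries is not known from TPM, nor is the counting error of a value. Control replicate 3 and OA replicate 3 stood apart: the median absolute log2 difference over the table was 0.0456 between control replicates 1 and 2 and 0.0714 between OA replicates 1 and 2, against 0.125 to 0.201 for pairs of 1 group with a replicate 3. OA replicate 3 also carried the heart muscle transcript Myh6 at 406.9 TPM, against 3.55 and 19.7 TPM in OA replicates 1 and 2 and 2.22 to 3.29 TPM in the control libraries. Results are therefore also given without these libraries.

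All 7 GTPase transcripts were lower in the OA libraries, by 11.7% to 23.2% of the control mean. In limma on log2(TPM + 1), with p-values adjusted over all 559 genes by Benjamini-Hochberg, 6 of the 7 fell at an adjusted p under 0.05 and Ifi47 did not pass. Among all listed genes 40.1% fell by the same test and 36.0% rose. The groups did not overlap for 7 of the 7, with every OA library below every control library, which was so for 48.5% of listed genes, while 45.1% had every OA library above every control library. The median log2 fold change of the members was −0.25, against −0.29 over the 272 listed genes (48.7%) with a log2 fold change under 0 in the authors' deposited table. The call count rested on single libraries: limma called 2 members when OA replicate 1 or control replicate 3 was left out, and 0 when OA replicate 2, OA replicate 3, control replicate 1 or control replicate 2 was. Leaving out OA replicate 2 or control replicate 1 left 0 calls in the whole table, so the counts for the lists given further on were 0 there too. When OA replicate 3 was dropped, the table kept 138 lower and 174 higher calls while 0 members were called. Dropping OA replicate 1 kept 187 lower and 177 higher calls. The table kept 30 lower and 119 higher calls when control replicate 3 was dropped. For control replicate 2 the numbers were 13 lower and 87 higher. With the libraries scaled to equal medians limma called 0 members. The table then had 82 lower and 162 higher calls, against 224 lower and 201 higher as deposited. In bulk RNA, fewer cells that carry a transcript and less of it per cell cannot be told apart.

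**Figure D2:**
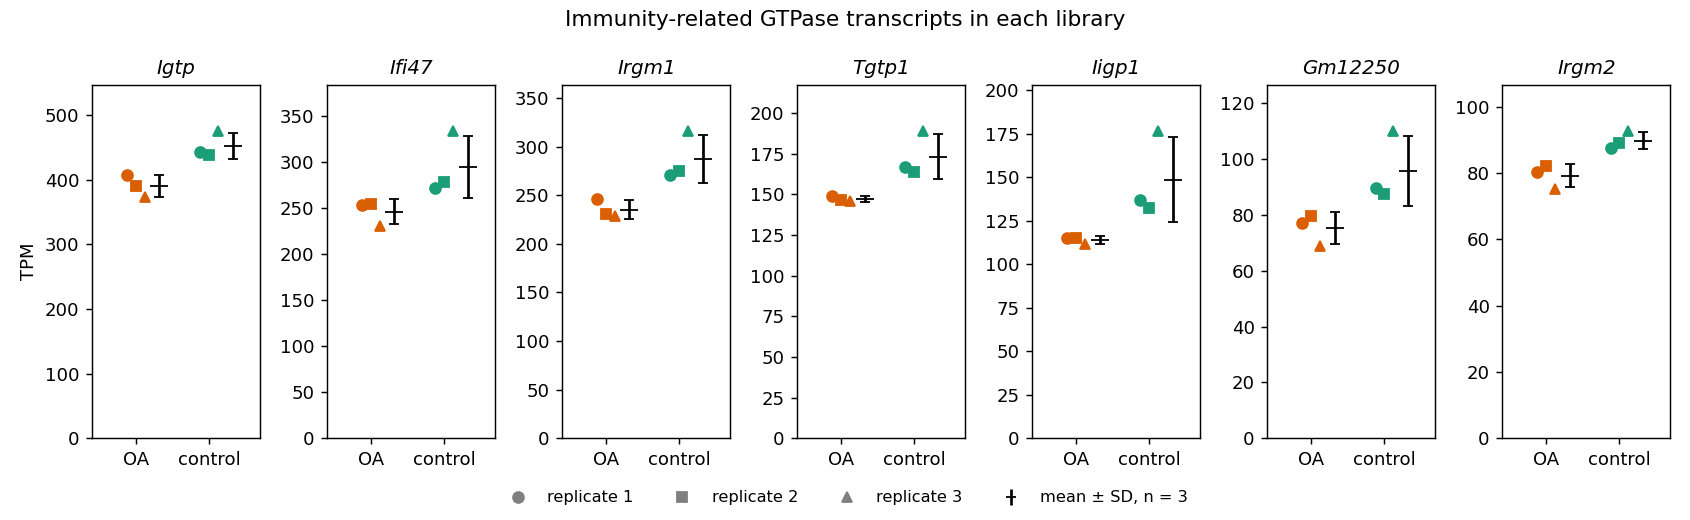
TPM of each gene in the OA libraries (orange, left) and the control libraries (green, right), each panel with its own axis from 0. Symbols mark the replicate number and black bars the mean ± SD over 3 libraries. The OA symbols lie below the control symbols in every panel, and control replicate 3 is the highest library for all 7 genes.

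Among the regulatory members, Igtp, whose protein sits at the endoplasmic reticulum and on lipid droplets, was the most abundant of the family. It stood at 406.7, 389.3 and 373.0 TPM in OA replicates 1, 2 and 3, and at 442.3, 438.6 and 474.9 TPM in control replicates 1, 2 and 3. The lowest control library was 31.9 TPM above the highest OA library. Igtp averaged 389.7 ± 16.9 TPM in OA libraries and 452.0 ± 19.98 TPM in control libraries (SD, n = 3 each), with a log2 fold change of −0.21 (SE 0.0599, adjusted p = 0.0314, limma).

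Irgm1, a regulator found on lysosomes and the Golgi apparatus that is also needed for the survival of activated mouse lymphocytes, stood at 246.0, 231.1 and 228.3 TPM in the OA libraries, against 270.6, 274.9 and 315.9 TPM in the control libraries. The control group spread further than the OA group because of control replicate 3, which was 1.16 times the mean of the other controls. The means were 235.1 ± 9.49 TPM in OA and 287.1 ± 25.02 TPM in control libraries, for a log2 fold change of −0.28 (SE 0.0789), and Irgm1 passed with an adjusted p of 0.0312 in limma.

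Irgm2, a regulator at the Golgi apparatus, had the smallest fold difference of the family with all libraries; without replicate 3 of both groups that of Ifi47 was smaller (log2 fold change −0.115, against −0.120 for Irgm2). It stood at 80.5, 82.0 and 75.3 TPM in the OA libraries and at 87.6, 89.1 and 92.7 TPM in the control libraries, which left a gap of 5.56 TPM between the groups. Irgm2 averaged 79.3 ± 3.53 TPM in OA and 89.8 ± 2.62 TPM in control libraries, a log2 fold change of −0.18 (SE 0.0555, adjusted p = 0.0368, limma). Control replicate 3 was 1.05 times the mean of the other controls, the least of the 7 genes.

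Among the effectors, Iigp1, whose protein loads onto the vacuole of the parasite Toxoplasma gondii in mouse cells, had the largest fold difference with all libraries; without OA replicate 2 that of Gm12250 was slightly larger (log2 fold change −0.382, against −0.375 for Iigp1). Its gene lies on chromosome 18 (chr18:60373616-60392634). It stood at 115.2, 115.3 and 111.6 TPM in the OA libraries, which lay close together, and at 136.9, 132.2 and 176.6 TPM in the control libraries. Control replicate 3 was 1.31 times the mean of the other controls, the most of the 7 genes. Iigp1 averaged 114.0 ± 2.13 TPM in OA and 148.5 ± 24.4 TPM in control libraries and passed in limma with a log2 fold change of −0.37 (SE 0.121) at an adjusted p of 0.0411. Without control replicate 3 its log2 fold change was −0.24 (adjusted p = 0.0431, limma), so that the OA mean was 0.847 of the control mean, against 0.768 with all libraries.

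Gm12250, whose protein Irgb10 acts with guanylate-binding proteins on bacterial membranes and inclusions, stood at 77.0, 79.6 and 68.7 TPM in the OA libraries, against 89.4, 87.4 and 109.9 TPM in the control libraries. Replicate 3 was the lowest library of the OA group and the highest of the control group. Gm12250 averaged 75.1 ± 5.70 TPM in OA and 95.5 ± 12.4 TPM in control libraries, with a log2 fold change of −0.34 (SE 0.113, adjusted p = 0.0414, limma). Without replicate 3 of both groups it was −0.17.

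Tgtp1, whose protein Irgb6 is among the first to reach the parasite vacuole, stood at 149.0, 146.3 and 145.6 TPM in the OA libraries and at 166.7, 164.0 and 188.8 TPM in the control libraries. The OA values varied by 1.24% of their mean and the control values by 7.87%. The means were 147.0 ± 1.82 TPM in OA and 173.2 ± 13.6 TPM in control libraries, with a log2 fold change of −0.23 (SE 0.0691) that passed in limma at an adjusted p of 0.0336. Its value is uncertain as that of a single gene. The coding sequence of Tgtp2, a neighbour not listed in the table, was 99.7% identical over 1245 aligned bases in GENCODE transcripts, and 73.1% of all stretches of 100 bases in Tgtp1 transcripts also occurred in transcripts of other genes. How the authors divided reads between these copies is not given in the sources used here.

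Ifi47, an effector that is loaded onto parasite vacuoles after the others, did not pass. It stood at 253.6, 254.2 and 230.1 TPM in the OA libraries, against 272.1, 277.9 and 333.5 TPM in the control libraries. The groups did not overlap, but the control libraries spread over a wider range than the gap of 17.9 TPM between the groups. Ifi47 averaged 246.0 ± 13.7 TPM in OA and 294.5 ± 33.9 TPM in control libraries, with a log2 fold change of −0.25 (SE 0.0990, adjusted p = 0.0579, limma). Its adjusted p ran from 0.0312 to 0.151 over the 13 alternatives tried, and it passed in limma with an intensity trend and robust prior, with genes under a mean of 10 TPM left out, and without replicate 3 of both groups. In the authors' deposited table its Q value was 0.0246 and its log2 fold change −0.26.

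For the other members, too, the authors' deposited table gives log2 fold changes close to these, from −0.17 for Irgm2 to −0.38 for Iigp1. The smallest Q value in the authors' deposited table was that of Igtp (0.000555), then that of Irgm1 (0.000583), and the largest was that of Irgm2 (0.0263). Outside Tgtp1, stretches of 100 bases shared with transcripts of other genes were few: 5.16% for Igtp, which shares them with Irgm2, 3.01% for Irgm2, 0.561% for Ifi47, which shares them with Olfr56, and 0 for Irgm1, Iigp1 and Gm12250. In GENCODE M21 the annotated bounds of Igtp overlap those of Irgm2, those of Ifi47 overlap Olfr56 and those of Tgtp1 overlap Gm12185, each on the same strand, so reads there may be shared. GENCODE M21 annotates Gm12250 as a processed pseudogene, where RefSeq has a protein-coding gene.

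**Figure D3:**
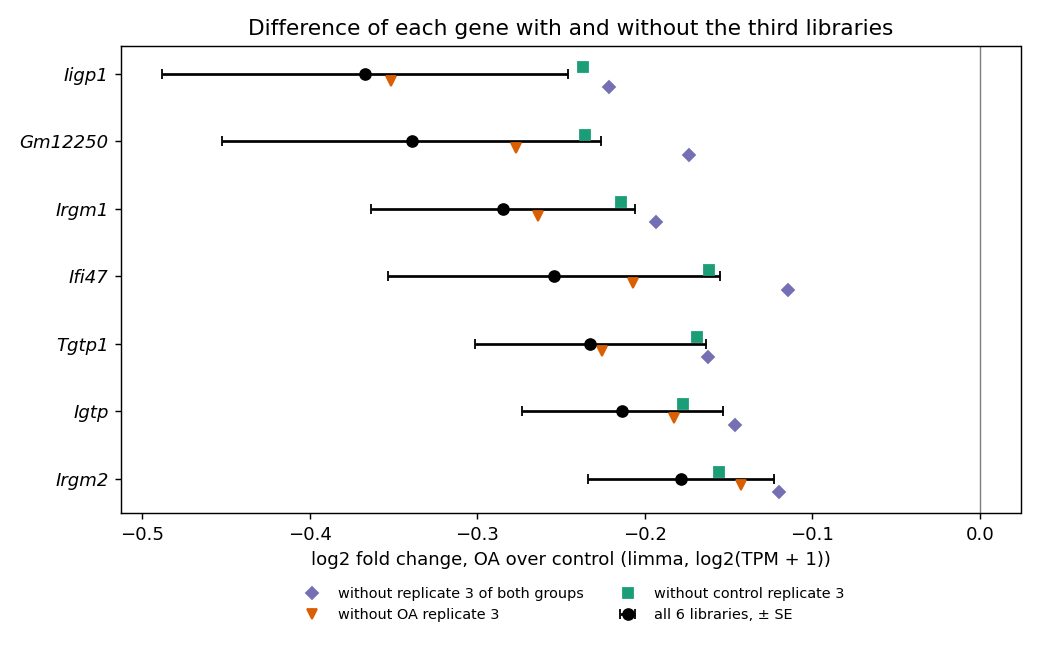
Log2 fold change of OA over control for each gene from limma on log2(TPM + 1). Black circles with bars give the value ± SE over all 6 libraries, and coloured symbols the value without control replicate 3 (green squares), without OA replicate 3 (orange triangles) and without replicate 3 of both groups (purple diamonds). Every symbol lies below 0, and the purple diamonds lie nearest to it.

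The replicates 3 set much of the size of the difference. Control replicate 3 was the highest of all 6 libraries and OA replicate 3 the lowest for 7 of the 7 genes. Without replicate 3 of both groups the median log2 fold change of the members was −0.16, against −0.25 with all libraries. Limma then called 7 of the 7 lower, the spread within groups being smaller as well. Over the whole table it called 191 genes lower and 190 higher. Without control replicate 3 alone the OA means were 0.847 to 0.897 of the control means, against 0.768 to 0.883 with all libraries. Control replicate 3 was higher than the mean of the other controls for 95.2% of the 272 listed genes that were lower in OA. That was so for 16.03% of the 287 that were higher. The members thus shared this with most of the listed genes that were lower in OA.

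The order of the levels was nearly the same in both groups. Igtp stood highest, then Ifi47, Irgm1, Tgtp1 and Iigp1, and Gm12250 and Irgm2 were lowest. Ifi47 and Irgm1 did not differ beyond their spread in either group, although Ifi47 was above Irgm1 in all 3 libraries of each. Gm12250 and Irgm2 overlapped in both groups: Irgm2 was above Gm12250 in 3 of 3 OA libraries, and Gm12250 was above Irgm2 in 2 of 3 control libraries. The ranges of Tgtp1 and Iigp1 did not overlap in OA libraries and overlapped in control libraries.

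Summed over the 7 genes, the family stood at 1328, 1298 and 1232 TPM in the OA libraries, against 1466, 1464 and 1692 TPM in the control libraries. The mean sum was 1286 ± 48.8 TPM in OA and 1541 ± 131 TPM in control libraries, a ratio of 0.835, or 0.878 without control replicate 3. The 4 effectors together averaged 582.0 ± 22.6 TPM in OA and 711.7 ± 84.0 TPM in control libraries, and the 3 regulators 704.1 ± 28.3 TPM and 828.9 ± 47.3 TPM. The ratio of effectors to regulators was 0.811, 0.847 and 0.822 in the OA libraries and 0.831, 0.824 and 0.915 in the control libraries, so that the groups overlapped, and only control replicate 3 stood above them. Igtp made up 30.3% ± 0.317 of the family sum in OA and 29.4% ± 1.16 in control libraries (SD, n = 3 each). Of the 21 ratios of 2 members, 6 (28.6%) did not overlap between the groups. The share for ratios of other listed genes was not computed, so this count is not read as a trait of the members. Every member ratio was turned so that its mean was lower in OA, so that direction is not a result. Written this way, the 6 had Irgm2, Igtp, Ifi47 or Tgtp1 as the denominator and Irgm1, Iigp1 or Gm12250 as the numerator. The ratio of Gm12250 to Irgm2, neighbours on the chromosome, was 0.956, 0.970 and 0.912 in the OA libraries against 1.02, 0.980 and 1.19 in the control libraries. The ratio of Iigp1 to Tgtp1 was 0.773, 0.788 and 0.766 in the OA libraries against 0.821, 0.806 and 0.935 in the control libraries. These ratios were not tested.

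Upstream of the GTPases, Ifng, which encodes interferon gamma, stood at 1043, 911 and 683 TPM in the OA libraries and at 1433, 1335 and 1783 TPM in the control libraries. The groups did not overlap, and the OA mean was 0.579 of the control mean (log2 fold change −0.80, SE 0.195, adjusted p = 0.0281, limma). Irf1, the factor between interferon gamma and its target genes, stood at 407.2, 385.6 and 352.8 TPM in OA and 453.4, 447.6 and 498.9 TPM in control libraries, and its OA mean was 0.818 of the control mean, near that of the GTPase sum. The family sum divided by Irf1 was 3.26 to 3.49 in OA and 3.23 to 3.39 in control libraries, which overlapped. Divided by Ifng it was 1.27 to 1.81 in OA and 0.949 to 1.10 in control libraries, which did not. These ratios were not tested, nor was a part of Irf1 or Ifng in the GTPase levels. Of the 21 genes of the list of interferon ligands, receptors and signal transducers, 3 were listed, of which Ifng and Irf1 fell and Nlrc5, a regulator of MHC class I genes, did not pass (adjusted p = 0.0514, limma). Limma called 0 of the 3 without control replicate 2 or control replicate 3, and 1 with equal medians. Jak1, Jak2 and the interferon gamma receptor genes were not listed, which does not mean that they did not change.

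Of the 9 negative regulators of interferon signalling on the list, 3 were listed. Socs1, an inhibitor of JAK kinases that interferon gamma induces, averaged 321.8 ± 21.6 TPM in OA and 385.0 ± 10.9 TPM in control libraries and fell (log2 fold change −0.26, adjusted p = 0.0285, limma). Cish, a cytokine-induced inhibitor, fell by 0.19 on the log2 scale, and Socs3, an inhibitor of other cytokine receptors, did not pass (log2 fold change 0.12, adjusted p = 0.0627, limma). Limma called 0 of these 3 without control replicate 2, without control replicate 3 or with equal medians, and 1 without OA replicate 1, without OA replicate 3 or without replicate 3 of both groups.

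The guanylate-binding proteins are larger interferon-induced GTPases that work together with this family on vacuoles. Of 12 on the list 6 were listed, and 6 fell. Their median log2 fold change was −0.39, against −0.25 for the immunity-related GTPases, and the deepest was that of Gbp3 (−0.44). Gbp2, the most abundant, averaged 527.9 ± 35.1 TPM in OA and 702.6 ± 95.2 TPM in control libraries. The sum of the 7 GTPases divided by that of the 6 guanylate-binding proteins was 1.12, 1.14 and 1.18 in the OA libraries, against 1.07, 1.08 and 0.994 in the control libraries. These groups did not overlap, and the difference was not tested. Limma called 1 of the 6 without control replicate 3 or with the libraries scaled to equal medians, and 0 without control replicate 2 or OA replicate 3.

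Of 65 other interferon-induced genes on the list 17 were in the table. There were 14 that fell, 0 that rose and 3 that failed the test, with a median log2 fold change of −0.34. The smallest adjusted p-values were those of Ifi205, an IFI200 family gene (OA mean 0.606 of the control mean), Ly6i and Ly6c2, which encode membrane-anchored surface proteins of leukocytes (0.690 and 0.656), Ly6a, which encodes the surface protein Sca-1 (0.788), and Isg15, which encodes a ubiquitin-like modifier (0.793); each had an adjusted p of 0.0260 in limma. Of the 17, limma called 3 without control replicate 3, 2 without control replicate 2, 9 without OA replicate 3 and 9 with equal medians. Of 15 genes for the LC3 and GABARAP conjugation on which loading of these GTPases depends, and for their ubiquitin partners, 1 was listed: Sqstm1, an adaptor for ubiquitin, stood at 614.0 ± 9.73 TPM in OA and 558.2 ± 22.3 TPM in control libraries and did not pass (adjusted p = 0.0514, limma). It was called higher with a pseudocount of 0.1 or 5, with genes under a mean of 10 TPM left out, and with an intensity trend and robust prior. Of 13 further symbols of the family and its near relatives, 1 of which, Irgm3, is another name of Igtp, 0 were listed.

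The 5 listed genes whose pattern over the 6 libraries was most like that of the family, by Pearson's r of log2(TPM + 1) with the mean of the standardised members, were Gbp2 (0.999), Gbp4 (0.998), Tfrc (0.993), Rtp4 (0.993) and Npm1 (0.993). Gbp4 encodes another guanylate-binding protein, Rtp4 is interferon-induced, Tfrc encodes the transferrin receptor and Npm1 a nucleolar protein. The 6 points share the 2 groups and the same libraries, and 368 of the 552 other listed genes had an absolute r above 0.9. With the group means removed, r was 0.999 for Gbp2, 0.995 for Gbp4, 0.976 for Tfrc, 0.975 for Rtp4 and 0.991 for Npm1. Among the members themselves r ran from 0.881 to 0.991 over the 21 pairs.

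The listed NK and T cell markers fell, as the family did, while most of the listed myeloid and B cell markers rose. Of 22 NK cell markers 13 were listed and 13 fell, with a summed level of 3316 to 4233 TPM in OA and 5027 to 5992 TPM in control libraries. Among them Ncr1, which encodes the NK receptor NKp46, averaged 91.8 ± 12.9 TPM in OA and 131.4 ± 7.42 TPM in control libraries. Of 25 monocyte, macrophage and dendritic cell markers 10 were listed, of which 8 rose and Ly6c2 and Ccr2 fell, with a sum of 2059 to 2164 TPM in OA and 1579 to 1828 TPM in control libraries. Ly6c2 is also on the list of other interferon-induced genes and was counted in both. Of 15 B cell markers 6 were listed, of which 5 rose and 1 did not pass, with a sum of 503.1 to 592.3 TPM in OA and 323.1 to 402.7 TPM in control libraries. Of 15 T cell markers 2 were listed, Cd28 and Icos, and 2 fell, with a sum of 193.9 to 239.7 TPM in OA and 259.3 to 291.5 TPM in control libraries. The CD3 and T cell receptor genes of that list were not in the table. Of the listed markers 0 were at 0 in any library; the rest of each list was not analysed here. Without control replicate 3 limma called 1 of the 13 NK markers, 5 of the 10 myeloid markers, 4 of the 6 B cell markers and 0 of the 2 T cell markers. Without control replicate 2 it called 1, 4, 3 and 0 in the same order. Over the whole table it called 30 genes lower and 119 higher without control replicate 3. Without control replicate 2 these were 13 and 87, against 224 and 201 with all libraries, so most lower calls were lost across the table. With equal medians it called 6 NK markers lower, 6 myeloid markers higher and 1 lower, 5 B cell markers higher and 1 T cell marker lower. Without OA replicate 3 it called 1 of the 2 T cell markers. The sum of the 7 GTPases followed the order of the NK marker sum in all 6 libraries. It ran from control replicate 3 through control replicates 1 and 2 and OA replicates 1 and 2 to OA replicate 3. The guanylate-binding protein sum, Ifng and Irf1 ran in the same order, and the myeloid and B cell sums in the opposite order. The GTPase sum was 1466 TPM in control replicate 1 and 1464 TPM in control replicate 2. OA replicate 2 was the highest OA library for 4 of the 7 members, and control replicate 1 the lowest control library for 3. The GTPase sum divided by the NK marker sum was 0.314 to 0.372 in OA and 0.282 to 0.291 in control libraries. What part the mixture of cells had in the lower GTPase levels was not tested.

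**Figure D4:**
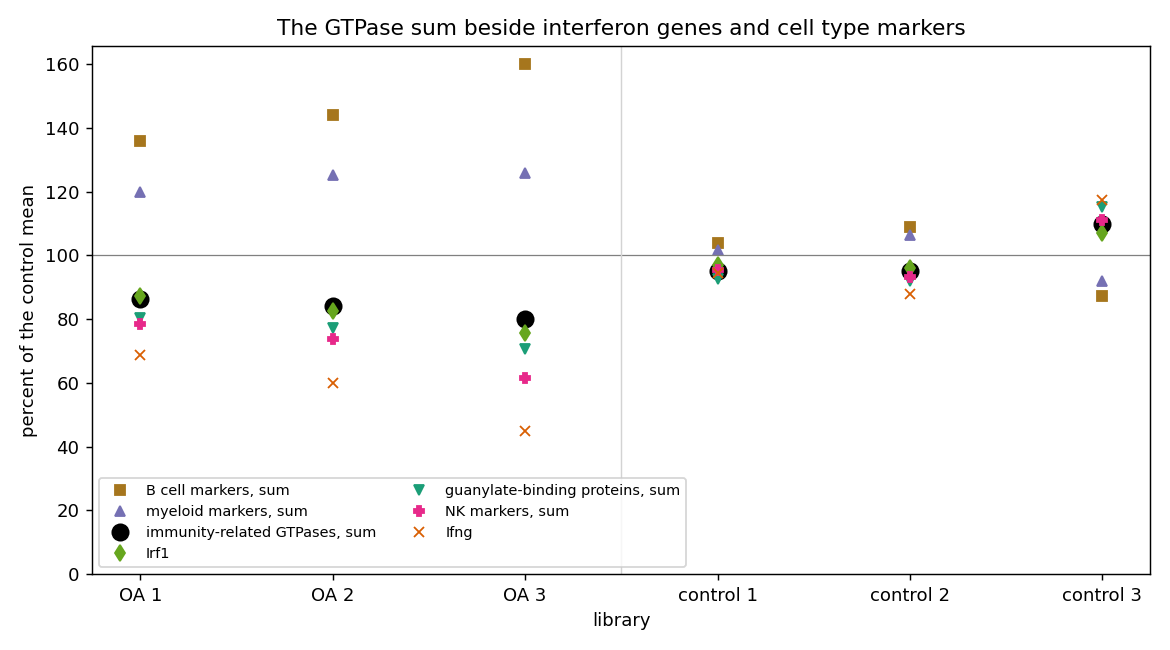
Each library's level as a percent of the mean of the 3 control libraries, for the sum of the 7 immunity-related GTPases (large black circles), the guanylate-binding protein sum, Ifng, Irf1 and the sums of listed NK, myeloid and B cell markers. The GTPase sum stood at 80.0% to 86.2% in OA libraries, with Ifng at 45.0% to 68.8% and the NK markers at 61.6% to 78.6%, while the B cell markers stood at 136% to 160%.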

How the data were processed

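The RNA-seq values of 6 libraries come from 1 deposited table. The labels' protocols name TRIzol for the lysis, a column kit for the RNA and an MGI instrument for the reads. Per the submitters' processing notes, mm10, DESeq2 1.4.5, RSEM 1.3.1 and Bowtie2 were used, in roles and an order they do not state; annotation and filters are not given in the sources used here. Per the file headers, the table holds TPM for each library, group means of TPM, and the authors' log2 fold change, P value and Q value.

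Columns were matched to samples by title and grouped by treatment. On log2(TPM + 1), which understates changes of low genes, all genes of the table were fitted together in limma 3.58.1 (R 4.3.3) with no filter or covariate. Tests were two-sided, with Benjamini-Hochberg adjusted p under 0.05. The fit was checked on simulated data.

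Members, gene lists and tests were chosen with earlier results of these data known. Named genes were all members, up to 4 genes with the smallest adjusted p per list, Ifng, Irf1 and Socs1, and the 5 genes most like the family. For the list of other interferon-induced genes 5 were named, because their adjusted p-values tied. Others, among them Gbp3, Myh6, Ncr1 and the motif arrangement, were named after their values were seen. Positions and promoters come from RefSeq (GRCm38) by gene identifier, with 556 of the 559 table genes found. Coding identity and shared stretches of 100 bases were computed from GENCODE M21 transcripts with Biopython 1.88.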

Additional observations from a re-analysis of the deposited data

How the results depend on the processing

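The median log2 fold change of the members was −0.25, and −0.23 to −0.31 when single libraries other than control replicate 3 were left out, −0.18 without control replicate 3 and −0.16 without replicate 3 of both groups (an alternative added after the data were seen). None of the 91 values for single members under these settings changed sign; 44 kept their side of the threshold, 44 fell short of it and 3, all for Ifi47, passed it. The number of members called lower in limma was 6 with other pseudocounts and 7 with a level minimum or an intensity trend. Over the whole table the level minimum gave 245 lower and 188 higher calls, and the intensity trend 259 and 204. With libraries scaled to equal medians 0 members were called (limma adjusted p from 0.0513, with 5 members at an unadjusted p under 0.05). At an adjusted p under 0.01 limma called 0 members and 1 gene in the whole table. With a replicate block it called 0 members (adjusted p 0.118 to 0.151, 0 unadjusted p under 0.05, 0 calls in the whole table). The replicate numbers were not taken as pairs: deviations of same-numbered libraries correlated at 0.327, −0.109 and −0.0809 across genes for numbers 1, 2 and 3, and not every library correlated best with its own number. Leaving out 1 library gave 0 to 2, with 2 to 7 members at an unadjusted p under 0.05 in limma; the cause was not tested, but each such fit has fewer libraries. The ratio of summed TPM ran from 0.815 to 0.878 over the single libraries left out. With 3 against 3 libraries an exact permutation test cannot go below 0.1, and TPM without read numbers leaves counting error unknown.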
